A study of Danio rerio with 2 samples.

Results

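The ubiquitin and SUMO conjugation genes described here are the genes that make, attach and remove ubiquitin and its relatives SUMO, NEDD8 and UFM1. They were chosen by symbol: E2 genes of the ube2 and ufc1 type, E1 genes (uba followed by a digit, sae1), the modifiers sumo, nedd8, ufm1, ubb and ubc, the PIAS ligases and the SENP proteases. The rule found 69 of the 32571 genes of the deposited table, of which 23 belong to the SUMO pathway and 46 to the ubiquitin, NEDD8 and UFM1 pathways. RNA was measured in whole AB strain zebrafish embryos at 6 hpf (hours post fertilization, early gastrulation), in embryos injected with Dcp2-DN and in mock-injected embryos. Dcp2 is the catalytic subunit of the mRNA decapping complex, and Dcp2-DN stands for a dominant-negative form of it, so the comparison asked how transcript levels differ when decapping is inhibited. Each library came from a pool of 40 to 50 embryos, so a change in the number of cells that express a gene and a change in RNA per cell cannot be told apart.

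FPKM stands for fragments divided by transcript length in kilobases and by a measure of library size, which makes levels of different genes comparable. Which measure of library size was used is not given. For each gene the authors' deposited table gave a single FPKM value in each group. The design text names 3 replicates, but only these group values were used, so nothing below has an SD or an n, and depth is unknown. A gene is described as called, as having risen or as having fallen, where the authors' deposited Cuffdiff result gave q under 0.05 over all tested genes. The number of libraries behind that test is not stated, and the spread it used may be technical. As a check of the labels, the dcp2 gene model ENSDARG00000089419 was at 212 FPKM in Dcp2-DN embryos and 0.0398 FPKM in mock embryos, although the authors' deposited table did not call it (Cuffdiff q = 0.303). The other dcp2 model, ENSDARG00000039016, was at 16.7 FPKM in Dcp2-DN and 13.9 FPKM in mock embryos and was not called.

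Ubiquitin and its relatives are small proteins joined to a substrate by 3 classes of enzyme in turn. An E1 activates the modifier, an E2 carries it, and a ligase brings the E2 to the substrate, while proteases process the precursor and take the modifier off again. Ubiquitin chains send proteins to the proteasome or serve as signals, SUMO acts largely on nuclear proteins, NEDD8 activates the cullin ubiquitin ligases, and UFM1 acts largely at the endoplasmic reticulum. In early embryos of many animals, ubiquitination drives the cell cycle and the clearance of maternal proteins.

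Of the 69 genes, 67 had a test in the authors' deposited table, and 18 of these were called higher and 3 lower in Dcp2-DN embryos. That is 26.9% higher and 4.48% lower, beside 20.6% higher and 4.35% lower among all 14810 tested genes. The share of falls was thus near the background, and the share of rises was above it, a difference that was not tested. With a fold of at least 1.5 asked for as well, 9 of the 67 tested members were called higher and 0 lower. Of all 14810 tested genes, 1762 (11.9%) and 131 (0.885%) were called so. At this fold the share of members called higher thus lay nearer the background. On the log2 scale (Dcp2-DN over mock, with 0.1 FPKM added to each value), the median ratio was 0.14 over the 68 members that averaged 1 FPKM or more, against 0.12 over all 15457 such genes. Values above the mock level were found for 48 of the 67 tested members (71.6%), beside 62.5% of all tested genes, and for 36 once the median of all genes was subtracted, and for 58 once the median of ribosomal protein genes (-0.22) was subtracted. The 2 members without a test were PIAS1, at 0.832 FPKM in Dcp2-DN and 1.07 FPKM in mock embryos, and ube2b (ENSDARG00000026035), at 1.31 and 1.27 FPKM in the same order. A separate UBE2B row (ENSDARG00000075552) was tested and not called, at 14 FPKM in Dcp2-DN and 11.7 FPKM in mock embryos (Cuffdiff q = 0.364).

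SUMO genes and the other members differed in how often they were called. Among the SUMO genes, 3 of 22 tested were called higher (13.6%) and 1 lower, while among the ubiquitin, NEDD8 and UFM1 genes 15 of 45 were called higher (33.3%) and 2 lower. Among all tested genes, 20.6% were called higher and 4.35% lower. The difference between the 2 sets was not tested. The SUMO genes were also the more abundant set, with a median mean level of 48.6 FPKM against 32.1 FPKM for the others. Of all tested genes, 23.8% were called higher at 20 to 50 FPKM, the range that holds both medians, and 16.4% at 50 to 100 FPKM. The part of expression level in the difference was not tested.

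**Figure D1:**
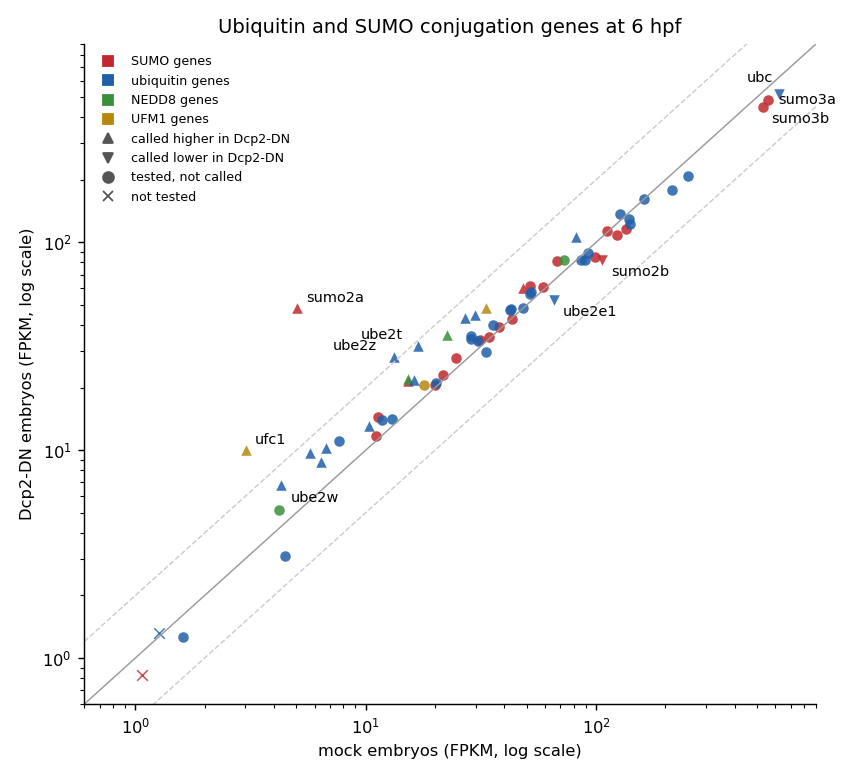
Deposited FPKM of each of the 69 genes in Dcp2-DN embryos (vertical, log scale) against mock embryos (horizontal, log scale), with the line of equal values and dashed lines at 2-fold. Colour gives the pathway and the marker gives the authors' call; sumo2a, ufc1 and ube2z lie above the upper dashed line, and the most abundant genes (ubc, sumo3a, sumo3b) lie just under equality.

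The SUMO modifiers gave the largest difference of the whole set. sumo2a (ENSDARG00000089469, chromosome 6, 18686357 to 18692065 in the Zv9 coordinates of the authors' files) was at 48.5 FPKM in Dcp2-DN embryos and 5.04 FPKM in mock embryos, a 9.63-fold rise (Cuffdiff q = 0.00235). Its log2 ratio ranked 20 among the 14810 tested genes, and of the 19 genes above it only 2 were called. Of the genes within 50000 bases of it, gga3 was also called higher, at 10.1 FPKM in Dcp2-DN and 5.33 FPKM in mock embryos, mif4gda was called lower, at 18.1 and 24.4 FPKM in the same order, and grb2a was not called.

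The paralog sumo2b (ENSDARG00000046062, chromosome 3, 6945636 to 6963988) went the other way. It was at 82 FPKM in Dcp2-DN embryos and 106 FPKM in mock embryos, 1.29-fold lower (Cuffdiff q = 0.0349). The 2 paralogs are counted at separate loci, but they are similar genes, and how reads that fit more than 1 copy were shared was not given. Summed over both, SUMO2 transcripts stood at 130 FPKM in Dcp2-DN and 111 FPKM in mock embryos.

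The bulk of SUMO message came from the SUMO3 pair, and neither of the pair was called. sumo3a was at 484 FPKM in Dcp2-DN and 556 FPKM in mock embryos (Cuffdiff q = 0.159), and sumo3b was at 447 FPKM in Dcp2-DN and 528 FPKM in mock embryos (Cuffdiff q = 0.0556, just outside the threshold). The log2 ratios of sumo2b, sumo3a and sumo3b, which lay from -0.37 to -0.20, became -0.15 for sumo2b, -0.021 for sumo3b and 0.018 for sumo3a when centred on ribosomal protein genes. In both groups sumo2a was less abundant than sumo2b and than either gene of the SUMO3 pair, despite its rise.

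The SUMO E1 genes were not called. sae1 and uba2 encode the 2 subunits of the SUMO E1. sae1 was at 116 FPKM in Dcp2-DN and 135 FPKM in mock embryos (Cuffdiff q = 0.111), and uba2 at 109 FPKM in Dcp2-DN and 123 FPKM in mock embryos (Cuffdiff q = 0.193). Both log2 ratios, -0.21 and -0.18, turned to 0.0070 and 0.041 when centred on ribosomal protein genes.

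Of the PIAS genes, which encode SUMO ligases, 1 of 4 tested was called higher, beside 20.6% of all tested genes. pias1b rose to 21.6 FPKM in Dcp2-DN embryos, against 15.3 FPKM in mock embryos, 1.41-fold (Cuffdiff q = 0.000593). That q is the lowest deposited value and is shared by 1249 tested genes, 8 of them members, so it does not rank them. The much more abundant pias2 was almost level, at 113 FPKM in Dcp2-DN and 112 FPKM in mock embryos. pias4a was at 42.9 FPKM in Dcp2-DN and 43.2 FPKM in mock embryos, and pias4b was at 14.5 FPKM in Dcp2-DN and 11.4 FPKM in mock embryos (Cuffdiff q = 0.0787).

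The SENP proteases moved little. Of the 9 tested SENP genes that act on SUMO, only SENP1 was called higher, beside 20.6% of all tested genes. SENP1 was at 60.4 FPKM in Dcp2-DN and 48 FPKM in mock embryos, 1.26-fold higher (Cuffdiff q = 0.0408). All 9 were above the mock level, as were 62.5% of all tested genes, but their median log2 ratio was 0.086, below the 0.12 of all genes. SENP2 was at 34 FPKM in Dcp2-DN and 31.3 FPKM in mock embryos. Of the relatives that in mammals act mainly on SUMO2 and SUMO3, senp3a was at 39.2 FPKM in Dcp2-DN and 37.7 FPKM in mock embryos. senp3b, at a locus shared with 2 other rows, was at 61.1 and 59.1 FPKM in the same order. The 2 senp5 rows, which share 1 locus, were at 23.1 and 27.8 FPKM in Dcp2-DN and 21.6 and 24.7 FPKM in mock embryos. The chain-trimming genes senp6a, senp7 and SENP7 (2 of 2) had folds between 1.01 and 1.06, and none of these was called. SENP7 (2 of 2) shares its locus with 1 other row.

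**Figure D2:**
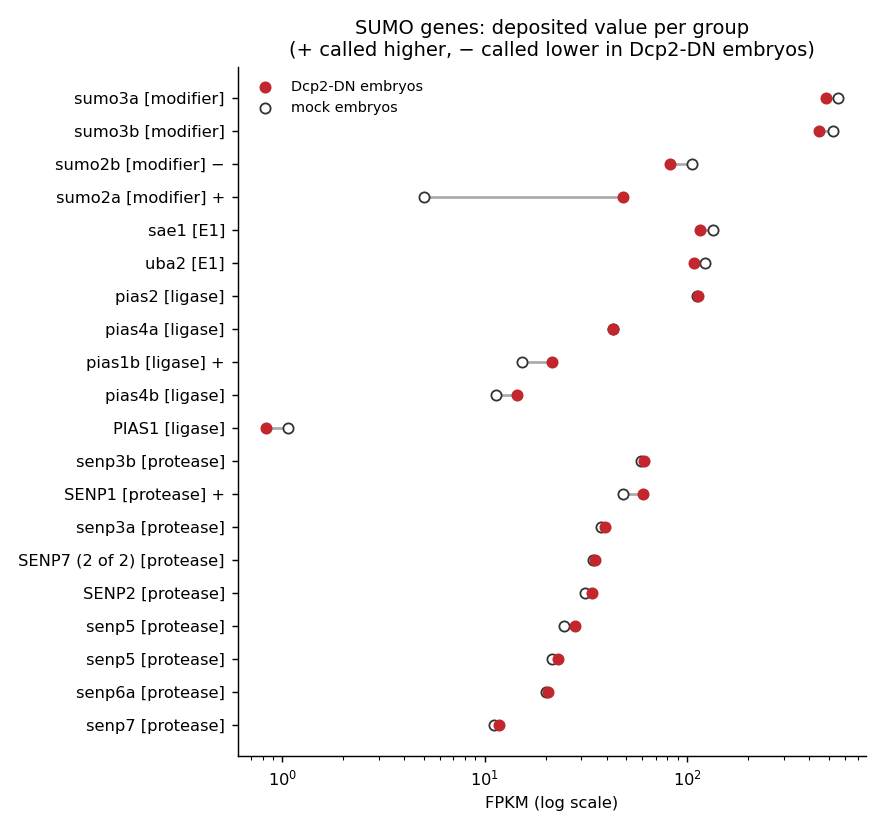
Deposited FPKM (log scale) of 20 of the 23 SUMO genes in Dcp2-DN embryos (filled) and mock embryos (open), ordered by role and level, with + and − for genes the authors called higher or lower. sumo2a is at 48.5 FPKM in Dcp2-DN and 5.04 FPKM in mock embryos, whereas for most other genes the 2 points nearly touch.

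Among the ubiquitin genes proper, 1 of the 3 members that code for ubiquitin itself was called, and it was lower. Of all tested genes, 4.35% were called lower. ubc, a polyubiquitin gene and the most abundant member of all, fell to 515 FPKM in Dcp2-DN embryos, against 622 FPKM in mock embryos, 1.21-fold lower (Cuffdiff q = 0.0229). Its log2 ratio of -0.27 became -0.054 when centred on ribosomal protein genes. ubb was at 11 FPKM in Dcp2-DN and 7.67 FPKM in mock embryos, 1.44-fold, but with a Cuffdiff q of 0.867. That locus is shared with 4 other genes, and polyubiquitin genes are made of near-identical repeats, so values for single ubiquitin genes are uncertain.

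Of the 2 ubiquitin E1 genes, the minor one rose and the main one did not. UBA6 was at 8.80 FPKM in Dcp2-DN and 6.37 FPKM in mock embryos, 1.38-fold (Cuffdiff q = 0.00636). uba1, the principal ubiquitin E1, was at 162 FPKM in Dcp2-DN and 161 FPKM in mock embryos. ube2z, whose mammalian product is an E2 charged by UBA6 and not by UBA1, had the largest rise of the ubiquitin genes. It was at 27.9 FPKM in Dcp2-DN and 13.2 FPKM in mock embryos, 2.11-fold (Cuffdiff q = 0.000593). A link between the rises of UBA6 and ube2z was not tested.

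Of the 33 tested ubiquitin E2 genes, 10 were called higher (30.3%) and 1 lower (3.03%), beside 20.6% and 4.35% of all tested genes. After ube2z came ube2t, the E2 of the Fanconi anaemia DNA repair pathway, at 31.8 FPKM in Dcp2-DN and 16.9 FPKM in mock embryos, 1.88-fold (Cuffdiff q = 0.000593). ube2w, whose product modifies protein N-termini, was at 6.77 FPKM in Dcp2-DN and 4.31 FPKM in mock embryos, 1.57-fold (Cuffdiff q = 0.00153).

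The ube2d family, broad-range E2 enzymes that work with many RING and HECT ligases, was split by paralog. ube2d4 was at 9.67 FPKM in Dcp2-DN and 5.75 FPKM in mock embryos, 1.68-fold, ube2d2 at 43.2 and 27 FPKM in the same order, 1.60-fold, and ube2d3 at 44.5 and 29.7 FPKM, a log2 ratio of 0.58, each at the lowest Cuffdiff q of 0.000593. ube2d1a, at 33.7 FPKM in Dcp2-DN and 30.6 FPKM in mock embryos, and ube2d1b, at 57.4 and 52.3 FPKM in the same order, were not called, although both were 1.10-fold above mock. Summed over the 5 genes, the ube2d level was 188 FPKM in Dcp2-DN embryos and 145 FPKM in mock embryos, 1.30-fold.

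The ube2e family, another group of E2 enzymes, gave no rise. ube2e1 fell to 52.9 FPKM in Dcp2-DN embryos, against 65.5 FPKM in mock embryos, 1.24-fold lower (Cuffdiff q = 0.0292). ube2e2 was at 3.11 FPKM in Dcp2-DN and 4.44 FPKM in mock embryos (Cuffdiff q = 0.0793), the lowest log2 ratio of the tested members at -0.50, and ube2e3 was at 29.8 and 33.2 FPKM in the same order. All 3 log2 ratios were below 0, but that of ube2e3 turned to 0.061 when centred on ribosomal protein genes. The ube2e3 locus is shared with 1 other row.

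E2 genes linked to degradation of endoplasmic reticulum proteins were partly called. In the ube2g family 1 of 3 tested genes was called higher and in the ube2j family 1 of 2, beside 20.6% of all tested genes. ube2g2 was at 21.7 FPKM in Dcp2-DN and 16.2 FPKM in mock embryos, 1.34-fold (Cuffdiff q = 0.0173), and ube2j1 was at 13 FPKM in Dcp2-DN and 10.3 FPKM in mock embryos, 1.27-fold (Cuffdiff q = 0.0359). ube2j2 reached 35.5 FPKM in Dcp2-DN and 28.6 FPKM in mock embryos, 1.24-fold, with a Cuffdiff q of 0.167. The ube2g2 relatives ube2g1a (137 FPKM in Dcp2-DN, 127 FPKM in mock embryos) and ube2g1b (122 and 141 FPKM in the same order) were among the 9 most abundant members, and neither was called.

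Of the 2 E2 genes of the anaphase-promoting complex, the mitotic ligase that destroys cyclins, UBE2S, which lengthens ubiquitin chains, rose to 106 FPKM in Dcp2-DN embryos, against 81.9 FPKM in mock embryos, 1.29-fold (Cuffdiff q = 0.00195). ube2c, which starts the chains, was at 179 FPKM in Dcp2-DN and 214 FPKM in mock embryos, and at a Cuffdiff q of 0.0578 it was not called. UBE2S was thus the most abundant of the 18 members called higher. ube2ka, a chain-building E2 gene, rose to 10.3 FPKM in Dcp2-DN embryos, against 6.70 FPKM in mock embryos, 1.53-fold (Cuffdiff q = 0.00664), and its paralog ube2kb was at 34.4 FPKM in Dcp2-DN and 28.7 FPKM in mock embryos without a call (Cuffdiff q = 0.117).

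In all, 22 tested ubiquitin E2 genes were not called, with folds between 0.70 and 1.24 and with 13 above and 9 below mock. They include ube2na, ube2nb, ube2v1 and ube2v2, whose products pair to build chains used in DNA repair and immune signalling. ube2na and ube2nb were at 81.8 and 56.6 FPKM in Dcp2-DN embryos and at 86.2 and 51.5 FPKM in mock embryos. ube2q2, also among the most abundant members, was at 129 FPKM in Dcp2-DN and 139 FPKM in mock embryos. ube2a, whose product acts in DNA damage tolerance, was at 47.5 FPKM in Dcp2-DN and 42.7 FPKM in mock embryos.

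**Figure D3:**
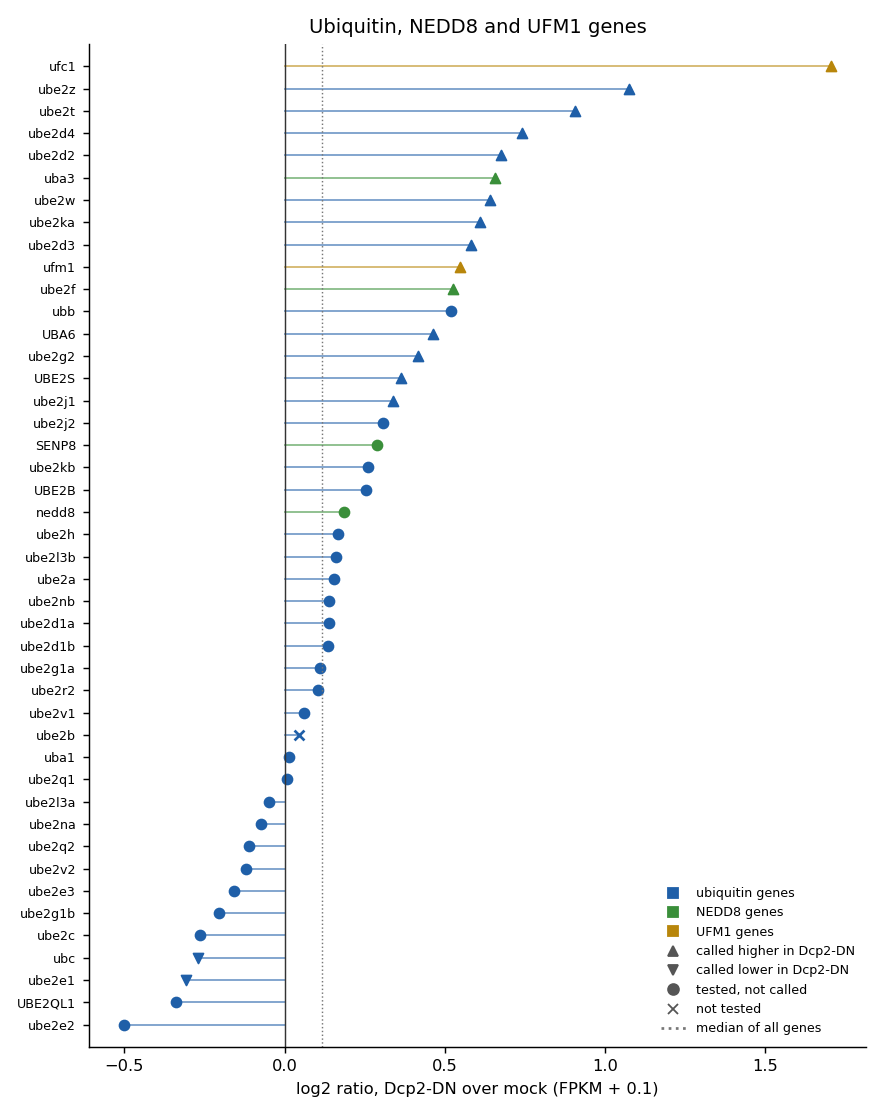
Log2 ratio of Dcp2-DN over mock (0.1 FPKM added) for 44 of the 46 ubiquitin, NEDD8 and UFM1 genes, sorted, with colour for the pathway, marker for the authors' call and a dotted line at the median of all genes (0.12). The 15 called rises lie between 0.34 for ube2j1 and 1.71 for ufc1, and the called falls, ubc and ube2e1, lie at -0.27 and -0.31.

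All 4 NEDD8 genes lay above mock, as did 62.5% of all tested genes. Of the 4, 2 were called higher, beside 20.6% of all tested genes. uba3, which encodes the catalytic subunit of the NEDD8 E1, was at 35.7 FPKM in Dcp2-DN and 22.6 FPKM in mock embryos, 1.58-fold (Cuffdiff q = 0.000593). ube2f, a NEDD8 E2 gene, was at 22.1 FPKM in Dcp2-DN and 15.3 FPKM in mock embryos, 1.44-fold (Cuffdiff q = 0.0440). nedd8 itself was at 82.4 FPKM in Dcp2-DN and 72.5 FPKM in mock embryos, and SENP8, a protease that acts on NEDD8 despite its name, was at 5.14 and 4.19 FPKM in the same order. Neither of these was called.

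Of the UFM1 genes, 2 of 3 tested were called higher, beside 20.6% of all tested genes. ufc1, the E2 gene of this pathway (ENSDARG00000022340, chromosome 5, 59064724 to 59067961), was at 10.1 FPKM in Dcp2-DN and 3.01 FPKM in mock embryos, 3.34-fold (Cuffdiff q = 0.000593), second only to sumo2a among the tested members. ufm1, the modifier, was at 48.4 FPKM in Dcp2-DN and 33.1 FPKM in mock embryos, 1.46-fold (Cuffdiff q = 0.0133).

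All 18 called rises had a mean level between 5.54 and 93.7 FPKM, and the 3 called falls lay between 59.2 and 569 FPKM, so the ranges overlapped. Below a mean of 50 FPKM, a boundary chosen after the values were seen, 16 of 41 tested members were called higher (39%) and 0 lower, beside 22.4% and 3.3% of all tested genes of that range. At 50 FPKM and above, 2 of 26 were called higher (7.69%) and 3 lower (11.5%), beside 12.3% and 9.25% of all tested genes. The median log2 ratio was 0.62 over the 6 members and 0.22 over all tested genes at 5 to 10 FPKM, and -0.24 over the 2 members and -0.18 over all tested genes at 500 FPKM or more. At 1 to 5 FPKM it was -0.34 over the 3 members and 0.19 over all tested genes.

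**Figure D4:**
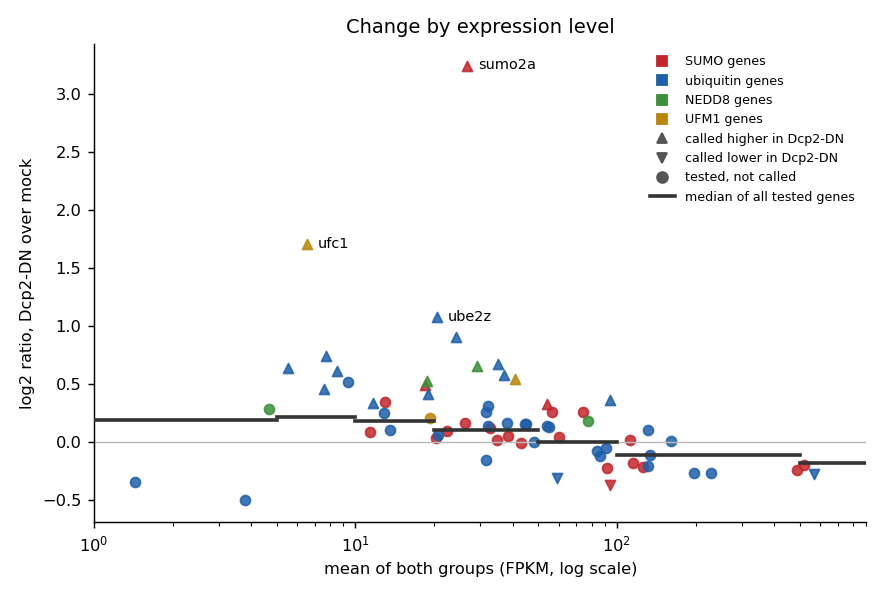
Log2 ratio of Dcp2-DN over mock for the 67 tested members against the mean FPKM of both groups (log scale), with horizontal bars at the median of all tested genes in 7 ranges of level. sumo2a at 3.24 and ufc1 at 1.71 stand far above the bars, while the members above 100 FPKM lie close to them.

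Genes of the same pathways that the symbol rule does not take were read from 6 lists, 89 rows in all. Of 81 tested, 23 were called higher (28.4%) and 1 lower (1.23%), beside the 20.6% and 4.35% of all tested genes. Their median log2 ratio was 0.23. Calls higher came to 3 of 6 UFM1 genes, 4 of 8 E2 relatives, 5 of 17 NEDD8 genes, 5 of 17 other ubiquitin-like genes, 2 of 13 other SUMO genes and 4 of 20 HECT and U-box ligases. The call lower was huwe1, a large HECT ligase gene, at 24.5 FPKM in Dcp2-DN and 29.7 FPKM in mock embryos (Cuffdiff q = 0.0231), whose locus is shared with other rows.

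The largest called rise of these lists was rnf7, whose product is a RING subunit of cullin ligases and in human cells is the partner of UBE2F. It was at 27.1 FPKM in Dcp2-DN and 13 FPKM in mock embryos, 2.08-fold (Cuffdiff q = 0.000593). dcun1d1, a NEDD8 ligase gene, was at 27.7 FPKM in Dcp2-DN and 15.3 FPKM in mock embryos, 1.81-fold (Cuffdiff q = 0.00510). nae1, the partner subunit of uba3 in the NEDD8 E1, was at 12.6 FPKM in Dcp2-DN and 9.53 FPKM in mock embryos, 1.32-fold (Cuffdiff q = 0.0365). rbx1, the relative of rnf7, was at 108 FPKM in each group and was not called.

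All 6 tested UFM1 genes outside the rule were above mock (62.5% of all tested genes were), although ufl1, the ligase gene, at 5.82 FPKM in Dcp2-DN and 5.53 FPKM in mock embryos, had a log2 ratio of 0.071, below the median of all genes. UFSP1, a UFM1 protease gene, was at 6.98 FPKM in Dcp2-DN and 3.89 FPKM in mock embryos, 1.80-fold (Cuffdiff q = 0.0197), at a locus shared with 1 other row. ufsp2, its relative, was at 10.4 FPKM in Dcp2-DN and 6.75 FPKM in mock embryos, 1.54-fold (Cuffdiff q = 0.00857). The other called gene was a ddrgk1 row (ENSDARG00000037172), whose product anchors the UFM1 ligase at the endoplasmic reticulum. It was at 24.7 FPKM in Dcp2-DN and 15.1 FPKM in mock embryos, 1.63-fold (Cuffdiff q = 0.0326). Another ddrgk1 row (ENSDARG00000075690) was at 19.1 FPKM in Dcp2-DN and 15.8 FPKM in mock embryos, 1.21-fold, and was not called (Cuffdiff q = 0.341). The ddrgk1 rows are counted separately among the 6.

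**Figure D5:**
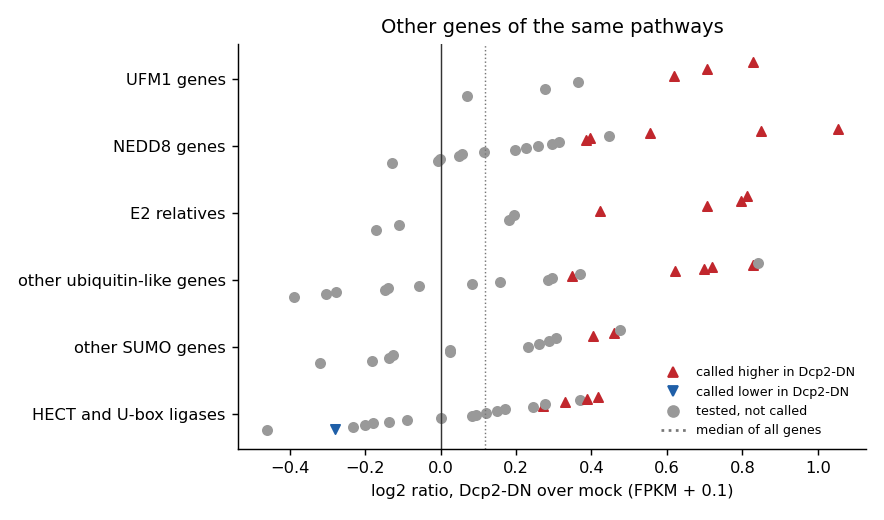
Log2 ratio of Dcp2-DN over mock (0.1 FPKM added) for the 81 tested genes of the 6 pathway lists, 1 point per gene, coloured and shaped by the authors' call, with a dotted line at the median of all genes (0.12). All 6 UFM1 genes lie right of 0, and the ligase list holds the called fall, huwe1 at -0.28.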

How the data were processed

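The data were a single gene-level comparison table with a Cuffdiff header, covering 1 Dcp2-DN and 1 mock sample entry. Per the labels' protocols, libraries were stranded and made after removal of ribosomal RNA. TopHat 1.4.0, Cuffdiff 2.1.1 and the Zv9 build (also called danRer7) are named in the submitters' processing notes. What annotation, scaling and strand setting were used, and how many libraries entered each group, is not given in the sources used here. The authors deposited, per the file headers, an FPKM value for either group of each gene, with a p-value and a q-value. The deposited q equalled a Benjamini-Hochberg adjustment over the 14810 tested rows to within 5.2e-07. The other 17761 rows had no test. The deposited log2 fold column held cells that were not numbers and was not used.

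Log2 ratios of Dcp2-DN over mock were computed after adding a pseudocount of 0.1 FPKM to both values, which shrinks the ratios of low genes. Folds are ratios of FPKM. No test was added, since values per library were not analysed. Members were matched after dropping a trailing "(n of m)", and 56 of 69 gene IDs were in the name table used. The members, the lists and the rule for named genes were chosen with earlier results of these data known. Named were SUMO genes, all called members, abundant ones, paralogs of called members, and the 3 largest called rises and falls of the pathway lists. nae1, rbx1, ufl1, ufsp2, ddrgk1 and uncalled E2 examples were named after their values were seen. Some items that the rule or the lists take are not reported here. Python 3.11.15, NumPy 2.4.6, pandas 2.3.3 and matplotlib 3.10.9 were used. The steps were tested on simulated data with a spread set in advance, which does not test the deposited calls.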

Additional observations from a re-analysis of the deposited data

How the results depend on the processing

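At q under 0.01 in the authors' deposited table, 13 of 67 tested members were called higher and 0 lower. The counts were 2 and 0 of 22 SUMO genes and 11 and 0 of the 45 others. They were 14 and 0 of 81 other pathway genes, and 2004 and 230 of all 14810 tested genes. With a fold of at least 1.5 added, the counts were 9 and 0 members (SUMO genes 1 and 0, others 8 and 0), 12 and 0 other pathway genes, and 1762 and 131 of all tested genes (11.9% and 0.885%). The 3 called falls were thus all below 1.5-fold and had q between 0.01 and 0.05. With a mean of at least 10 FPKM, 13 and 3 members and 1809 and 460 of all tested genes were called higher and lower. The numbers tested at that level are not given here, so these counts cannot be compared as shares. Leaving out genes that share a locus changed no member count (8 members share theirs, 0 of them called), but left 21 of the other pathway genes called higher and 0 lower.

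The median log2 ratio of the SUMO genes, 0.051, turned to -0.066 when the median of all genes was subtracted and was 0.27 relative to ribosomal protein genes. That of all members, 0.14, was 0.019 and 0.35 under these 2 centrings, that of the members outside SUMO (0.16) was 0.046 and 0.38, and that of the other pathway genes (0.23) was 0.11 and 0.45. The median of all genes (0.12) was 0.33 relative to ribosomal protein genes. A pseudocount of 1 FPKM, or other filters on low values, moved each of these medians by less than 0.1. No called member changed sign under any of these settings. No paired analysis was possible because the table holds 1 value per gene and group, and for the same reason no replicate could be left out.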

Other observations

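Several genes outside the symbol rule that resemble E2 enzymes or ubiquitin were also called higher in the authors' deposited table, and were named here after their values were seen. Of the E2 relatives, TSG101 (2 of 3), a relative of the endosomal sorting gene tsg101, was at 11.7 FPKM in Dcp2-DN and 6.62 FPKM in mock embryos (1.77-fold). The row named tsg101 was at 56.2 FPKM in Dcp2-DN and 49.6 FPKM in mock embryos and was not called. TSG101 (1 of 3), at 72.8 FPKM in Dcp2-DN and 63.7 FPKM in mock embryos, was not called either. uevld, which encodes an inactive E2 domain, was at 9.60 FPKM in Dcp2-DN and 5.48 FPKM in mock embryos (1.75-fold), and aktip, another inactive E2 relative, was at 143 FPKM in Dcp2-DN and 87.4 FPKM in mock embryos (1.63-fold). The cullin-ligase E2 gene cdc34a was at 131 FPKM in Dcp2-DN and 97.7 FPKM in mock embryos (1.34-fold), while its paralog cdc34b, at 158 FPKM in Dcp2-DN and 170 FPKM in mock embryos, was not called.

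Among other ubiquitin-like genes, urm1, whose product takes part in thiolation of transfer RNA, was at 21 FPKM in Dcp2-DN and 11.8 FPKM in mock embryos (1.78-fold), at a locus shared with 2 other rows. The autophagy conjugation gene atg5 was at 11.2 FPKM in Dcp2-DN and 6.87 FPKM in mock embryos (1.63-fold). The other autophagy conjugation genes of this list, ATG7, atg10, atg12 and atg16l1, were not called. ATG7 was below mock, at 4.43 FPKM in Dcp2-DN and 4.62 FPKM in mock embryos. ctu1, of the same list, was called higher (1.27-fold), while mocs3 and ctu2 were not called. In all, 5 of 17 tested genes of this list were called higher (29.4%), beside 20.6% of all tested genes. Of the other SUMO genes, those called higher in the authors' deposited table were desi2, of a family of deSUMOylating proteases, at 73.5 FPKM in Dcp2-DN and 53.5 FPKM in mock embryos (1.38-fold), and RNF4, a ubiquitin ligase that recognises SUMO chains, at 31 FPKM in Dcp2-DN and 23.4 FPKM in mock embryos (1.32-fold).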
